A study of Mus musculus with 6 samples.

Results

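The data described here are the levels of 10 genes of neutrophil granules and receptors in injured tendon, taken from a list written by name, out of 18099 genes in the table. The genes are *Mpo* and *Elane* of the primary granules, *Ltf*, *Ngp*, *Camp* and *Lcn2* of the secondary granules, *S100a8* and *S100a9* of the cytosol, the secreted *Retnlg* and the receptor gene *Csf3r*. RNA sequencing was done on Achilles tendon tissue of neonatal mice, cut across on each leg and collected a week later. The control group held 3 littermates with the floxed allele and no Cre (*Ampkα1 fl/fl*), and the other group, called the Cre mice here, 3 mice with *LysM-Cre* as well (*LysM-Cre; Ampkα1 fl/fl*). Cre is made from the lysozyme M locus, which is active in neutrophils as well as in macrophages, so that both lineages could lose AMPKα1, a catalytic subunit of the energy sensor AMPK. The RNA came from whole tissue and not from sorted cells. The libraries held between 18076805 and 19479887 reads, and the mice of a group are numbered as in the sample labels. *Tnmd*, a defining tendon gene, had between 29222 and 37910 reads in every library. For *Lyz2*, which encodes lysozyme M, 7378, 7778 and 7372 reads were found in the control mice and 9, 15 and 8 in the Cre mice. As this is the locus from which Cre is made, these reads served to check the labels and not to count myeloid cells. The groups thus differed in Cre and in *Lyz2* transcripts as well as in the intended loss of AMPKα1. Effects of these differences cannot be told apart here. *Prkaa1*, the gene for AMPKα1, had 740, 688 and 690 reads against 626, 751 and 652 (log2 fold change -0.08, standard error (SE) 0.09, edgeR adjusted p = 0.744).

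Neutrophils form in the bone marrow and fill their granules in a fixed order. Precursors at the promyelocyte stage make the primary granule enzymes, later precursors make the secondary granule proteins, and cells near release carry the receptor for granulocyte colony-stimulating factor (G-CSF) and large amounts of S100A8 and S100A9. Transcripts of the primary granules are largely switched off in neutrophils that circulate or enter a wound, where these cells are among the first to arrive and are later cleared. In whole tissue, fewer cells of a type and less RNA per cell cannot be told apart.

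Some of these genes share a chromosome. *S100a8* and *S100a9* lie on chromosome 3 (90669071 to 90670034 and 90692630 to 90695721 of GRCm38.p6), and *Camp*, *Ngp* and *Ltf* lie on chromosome 9, with start positions of 109847377, 110419808 and 111019292. The 250 bases before the start of 6 genes, chosen as the carriers of the early and late granule profiles described here, are given from RefSeq (GRCm38.p6), 5′ to 3′ on the strand of the gene. Capitals mark matches, on either strand, to TTGCNNAA, a form of the motif bound by C/EBP factors, or to GAGGAAGT, a form of the motif bound by PU.1. C/EBP factors and PU.1 are known regulators of neutrophil formation.
*Ngp*, chr9:110419558-110419807, plus strand: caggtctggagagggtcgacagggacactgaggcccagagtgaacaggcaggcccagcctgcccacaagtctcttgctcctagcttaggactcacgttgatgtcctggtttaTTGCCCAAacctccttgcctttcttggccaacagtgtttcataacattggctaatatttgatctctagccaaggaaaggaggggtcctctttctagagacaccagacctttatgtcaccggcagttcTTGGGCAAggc
*Ltf*, chr9:111019042-111019291, plus strand: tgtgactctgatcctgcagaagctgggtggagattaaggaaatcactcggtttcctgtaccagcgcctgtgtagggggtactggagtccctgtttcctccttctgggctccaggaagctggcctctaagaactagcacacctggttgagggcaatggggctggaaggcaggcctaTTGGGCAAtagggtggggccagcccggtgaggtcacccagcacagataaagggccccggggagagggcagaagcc
*S100a9*, chr3:90695722-90695971, minus strand: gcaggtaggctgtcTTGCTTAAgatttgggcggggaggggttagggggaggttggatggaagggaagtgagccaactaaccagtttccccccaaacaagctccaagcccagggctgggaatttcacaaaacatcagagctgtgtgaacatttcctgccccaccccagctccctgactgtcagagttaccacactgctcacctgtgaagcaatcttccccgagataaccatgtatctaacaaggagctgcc
*S100a8*, chr3:90668821-90669070, plus strand: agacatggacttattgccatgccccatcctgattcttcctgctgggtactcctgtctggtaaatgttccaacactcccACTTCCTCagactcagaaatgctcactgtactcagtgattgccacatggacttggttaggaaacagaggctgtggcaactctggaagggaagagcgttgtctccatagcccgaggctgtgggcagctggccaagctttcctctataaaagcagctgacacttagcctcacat
*Mpo*, chr11:87793534-87793783, plus strand: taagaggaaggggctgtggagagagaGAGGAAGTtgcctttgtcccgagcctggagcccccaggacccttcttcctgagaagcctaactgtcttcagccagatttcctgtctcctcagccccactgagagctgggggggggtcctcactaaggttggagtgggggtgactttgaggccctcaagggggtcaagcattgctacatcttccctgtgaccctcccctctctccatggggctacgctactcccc
*Elane*, chr10:79886062-79886311, plus strand: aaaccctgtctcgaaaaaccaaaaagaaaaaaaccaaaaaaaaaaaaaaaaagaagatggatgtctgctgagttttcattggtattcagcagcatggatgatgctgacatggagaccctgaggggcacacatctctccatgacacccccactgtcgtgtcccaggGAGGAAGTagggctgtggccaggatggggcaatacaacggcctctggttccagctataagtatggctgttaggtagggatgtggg
The C/EBP letters were found in the windows of *Ngp* (matches starting 138 and 11 bases before the gene), *Ltf* (75), *S100a9* (236), *Lcn2* (216) and *Retnlg* (246). Of all 32851 promoter windows of this length in the table, 9.56% held them. The PU.1 letters were found in both primary granule genes, *Mpo* (224 bases before the gene) and *Elane* (85), and in *S100a8* (172), against 2.44% of all windows. No match to either motif was present in the windows of *Camp* and *Csf3r*, which says only that these letters are not in these windows. The window of *Csf3r* (chr4:126024409-126024658, plus strand) lies inside the span of the gene, which starts at 126023441, and not before it.

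The primary granule genes were scarce, and they were high in 1 control mouse. *Mpo*, which encodes myeloperoxidase, had 12, 108 and 1 reads in control mice 1, 2 and 3 and 28, 0 and 21 reads in Cre mice 1, 2 and 3. *Elane*, the gene of neutrophil elastase, had 3, 30 and 0 reads against 7, 0 and 1. Both genes were highest in control mouse 2 and at 0 reads in Cre mouse 2, and the groups overlapped. A count of 0 allows up to 3 reads, which is 0.162 CPM (counts scaled to library size with TMM factors) in the latter library. *Mpo* averaged 2.20 ± 3.22 CPM in the control group and 0.865 ± 0.767 CPM in the Cre group (SD, n = 3), and its log2 fold change was -1.33 (SE 1.42, edgeR adjusted p = 0.729). That value rested on control mouse 2, since without this mouse it was 1.30 (edgeR adjusted p = 0.82). *Elane* had too few reads to pass the filter of edgeR and was not tested.

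In the control mice the secondary granule genes had the order of the primary granule genes, highest in mouse 2 and lowest in mouse 3. In the Cre mice their profile differed, since mouse 3 and not mouse 2 was the lowest. Among them only *Camp* was, like *Mpo* and *Elane*, highest of all libraries in control mouse 2. *Ngp*, which encodes neutrophilic granule protein, had 41, 155 and 0 reads in the control mice and 181, 95 and 6 reads in the Cre mice. *Ltf*, the gene of the iron-binding protein lactoferrin, had 22, 64 and 0 reads against 160, 70 and 5. *Camp*, the gene of the antimicrobial peptide precursor cathelicidin, had 8, 44 and 0 reads against 34, 8 and 2. In each of these genes control mouse 3 was at 0 and Cre mouse 3 was the lowest of its group. *Lcn2* encodes lipocalin 2, which binds bacterial iron carriers and is also made outside neutrophils. It had 40, 66 and 12 reads in the control mice and 69, 73 and 9 reads in the Cre mice, again lowest in both mice numbered 3. Within the control group, *Ngp* was at least 51.5-fold higher in mouse 2 than in mouse 3, and *Ltf* at least 21.3-fold. Within the Cre group, *Ngp* was 29.1-fold and *Ltf* 30.9-fold higher in mouse 1 than in mouse 3.

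Between the groups these differences were not larger than the spread between mice. *Ltf* averaged 1.55 ± 1.78 CPM in the control group and 4.13 ± 4.05 CPM in the Cre group (SD, n = 3; log2 fold change 1.41, SE 1.29, edgeR adjusted p = 0.677). The values for *Ngp* were 3.55 ± 4.40 and 4.97 ± 4.56 CPM (log2 fold change 0.49, SE 1.35, edgeR adjusted p = 0.915), and for *Lcn2* 2.13 ± 1.47 and 2.68 ± 1.91 CPM (0.33, SE 0.80, edgeR adjusted p = 0.896). *Ngp* turned to -0.09 without control mouse 3 and to -0.37 without Cre mouse 1. *Lcn2* turned to -0.09 without control mouse 3 and to -0.05 without Cre mouse 2. *Camp* averaged 0.942 ± 1.28 and 0.771 ± 0.883 CPM, and it did not pass the filter on low counts.

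*S100a8* and *S100a9* encode the partner proteins of calprotectin, which binds calcium and withholds zinc and manganese from microbes. *S100a8* had 37, 138 and 8 reads in the control mice and 116, 161 and 15 reads in the Cre mice. *S100a9* had 80, 179 and 6 reads against 230, 220 and 29. Mice numbered 3 were again the lowest of their group, and mice 1 and 2 of the Cre group were close to control mouse 2. *S100a8* averaged 3.31 ± 3.74 CPM in the control group and 5.19 ± 4.02 CPM in the Cre group (SD, n = 3; log2 fold change 0.65, SE 1.03, edgeR adjusted p = 0.834). For *S100a9* these were 4.78 ± 4.75 and 8.49 ± 5.99 CPM (log2 fold change 0.83, SE 1.03, edgeR adjusted p = 0.777). Per transcript length, *S100a8* was the highest of the 10 genes in each of the 6 libraries. Its TPM ran from 10.8 to 180 in the control group and from 19.0 to 229 in the Cre group, and that of *S100a9* from 3.34 to 95.9 and from 15.2 to 125. The ratio of *S100a9* to *S100a8* in TPM lay between 0.534 and 0.964 in 5 libraries, and it was 0.309 in control mouse 3, where both genes together had few reads.

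*Retnlg* and *Csf3r* departed from this profile. *Retnlg*, which encodes the secreted resistin-like gamma, had 10, 9 and 10 reads in the control mice and 31, 45 and 5 reads in the Cre mice. The control mice were nearly equal in it, whereas 2 mice of the other group were above and 1 was below them. Its levels were 0.523 ± 0.0288 and 1.44 ± 1.09 CPM (SD, n = 3), and its log2 fold change was 1.45 (SE 0.69, edgeR adjusted p = 0.404). *Csf3r*, the receptor for G-CSF, which monocytes and macrophages can carry too, had 168, 184 and 171 reads in the control mice and 218, 209 and 146 reads in the Cre mice. It was the most even of the 10 genes, at 9.44 ± 0.585 and 10.2 ± 1.99 CPM (SD, n = 3; log2 fold change 0.11, SE 0.16, edgeR adjusted p = 0.819). The 95% interval of its fold change ran from 0.827 to 1.41. For the other genes tested the intervals were much wider, for example from 0.286 to 8.59 for *S100a8* and from 0.317 to 22.3 for *Ltf*, and differences of several fold lay within them. The interval of *Retnlg* ran from 0.871 to 8.57. The table divided the reads of *Csf3r* over 19 transcripts, which were summed.

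**Figure D1:**
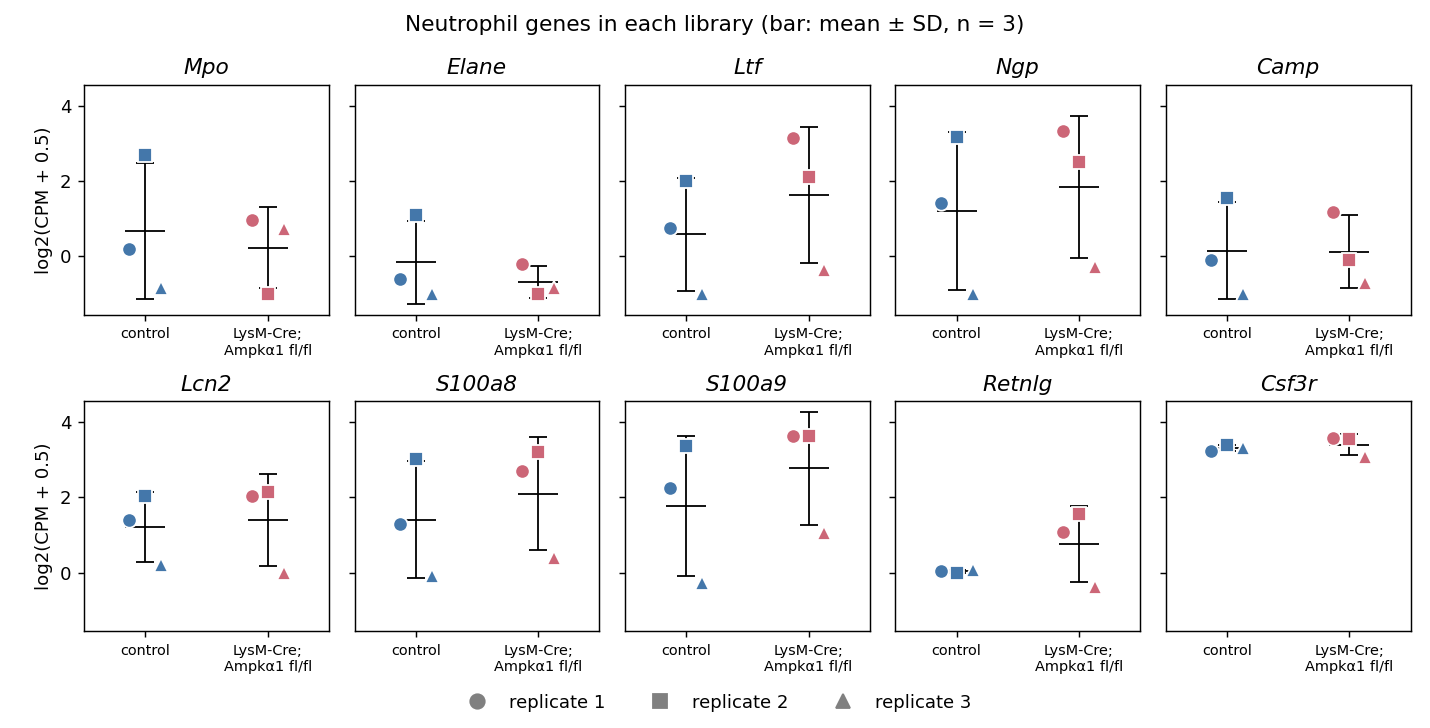
Level of each of the 10 neutrophil genes, as log2(CPM + 0.5), in the control and Cre groups. Symbols are single mice by replicate number and bars are the mean ± SD (n = 3); mice numbered 3 (triangles) were below the other 4 mice in 6 of the genes, whereas *Csf3r* was nearly level.

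Of the 10 genes, 8 passed the filter on low counts and 0 were called by the quasi-likelihood test of edgeR at an adjusted p of 0.05, against 0.898% of the 14261 genes tested. At an unadjusted p under 0.05 there were again 0, against 14.5% of all genes, and DESeq2 called 0, against 4.77%. The fold change was above 0 in 7 of the 8 genes and under 0 in *Mpo*, and it was above 0 in 49.4% of all genes tested. *Elane* and *Camp*, which were not tested, had log2 fold changes of -2.03 and -0.28 with no filter. Several of these genes rose and fell together across the mice, so their directions are not separate observations. The median log2 fold change of the 8 genes was 0.57, and that of all genes tested was -0.0020. The adjusted p lay between 0.404 (*Retnlg*) and 0.915 (*Ngp*). In 0 of the 10 genes were the groups apart without overlap, which held for 20.4% of all genes tested. An exact permutation test of 3 mice against 3, two-sided, on log2(CPM + 0.5) gave p between 0.4 and 1, where the smallest possible p is 0.1.

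**Figure D2:**
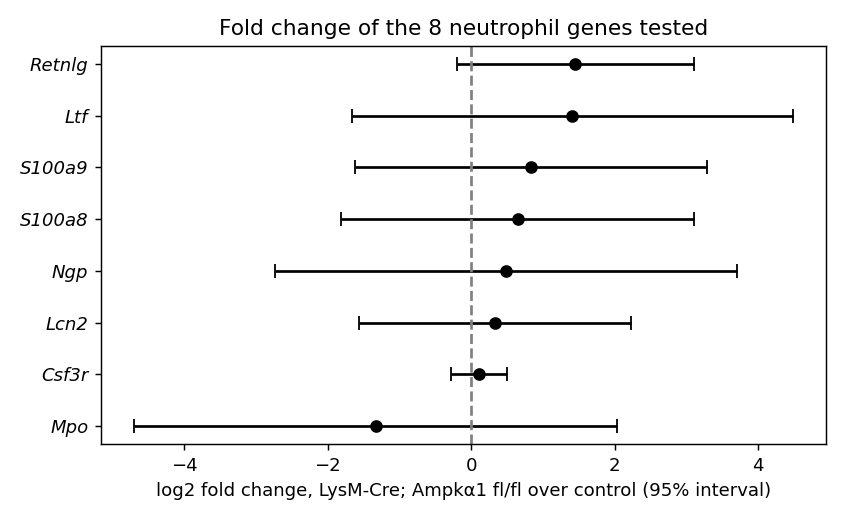
Log2 fold change of the Cre group over the control group for the 8 genes tested, with the 95% interval from edgeR (n = 3 per group). Every interval includes 0, and that of *Csf3r* is the narrowest.

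Set beside its same-numbered control, Cre mouse 1 was higher in 10 of the 10 genes, mouse 2 in 6 and mouse 3 in 7. For numbers 1 and 2 the same-numbered libraries were not each other's best match across genes, so these pairs are uncertain. *S100a8*, *S100a9* and *Ltf* were higher in all 3 pairs, as were 19.1% of all genes tested. When edgeR was run with the number of the mouse as a blocking term, *S100a9* had a log2 fold change of 1.10 (unadjusted p = 0.0237, adjusted p = 0.225) and *S100a8* of 0.87 (unadjusted p = 0.0431, adjusted p = 0.292). These 2 of 8 genes had an unadjusted p under 0.05 in the blocked test, against 15.9% of all genes. After adjustment 0 of the 8 passed, against 0.33%, with adjusted p between 0.225 and 0.965.

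The spread between mice of a group was large in these genes. The biological coefficient of variation, edgeR's estimate of the spread beyond counting error, had a median of 0.867 in the 8 genes tested and of 0.124 in all genes tested. It was 1.30 in *Mpo*, 1.28 in *Ngp* and 1.19 in *Ltf*, above 99.96%, 99.95% and 99.9% of the genes tested, 0.875 in *S100a9* and 0.860 in *S100a8*. *Lcn2* (0.680) and *Retnlg* (0.550) were above 97.6% and 96.7% of the genes. The exception was *Csf3r* with 0.172, above 70.5% of them. Genes of low level had a larger coefficient in general, with a median of 0.245 in the 3049 genes tested with a mean under 2.5 log2 CPM, a range that holds all of the neutrophil genes tested but *Csf3r*.

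**Figure D3:**
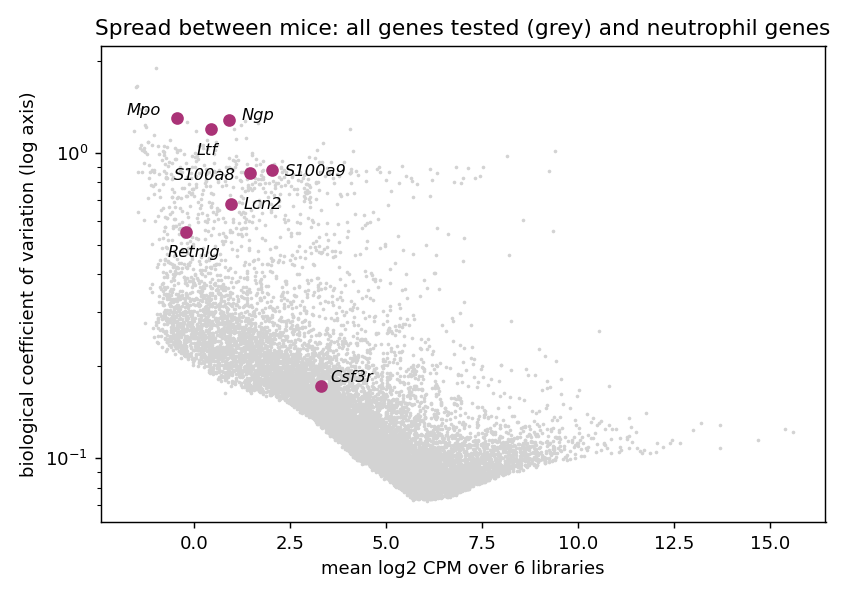
Biological coefficient of variation (log axis) against mean log2 CPM for all 14261 genes tested (grey) and the 8 neutrophil genes tested (labelled). Genes of low level spread more in general, and all neutrophil genes tested but *Csf3r* lie in the upper part of the cloud at their level.

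The mice numbered 3 were low in several of these genes. In 6 genes, namely *S100a8*, *S100a9*, *Ngp*, *Camp*, *Ltf* and *Lcn2*, both mice numbered 3 were below all other 4 mice. The share of all genes tested with this order was not counted. Several of the 6 genes rose and fell together, so they are not separate observations, and a link to the mouse number was not tested. Summed over the 10 genes without *Csf3r*, the level was 13.4, 43.3 and 2.03 CPM in control mice 1, 2 and 3 and 44.6, 36.3 and 5.03 CPM in the Cre mice. The mice numbered 3 were the lowest of their groups, and control mouse 2 was within the range of Cre mice 1 and 2. The summed level of 8 skeletal muscle genes, such as the muscle actin *Acta1*, was highest in mouse 3 of each group. It was 161, 515 and 2812 CPM in the control mice and 2959, 922 and 8498 CPM in the Cre mice. Mice 1 and 2 were in opposite order in the groups. Cre mouse 1 had more muscle transcripts than control mouse 3 together with the highest sum of neutrophil genes. The part of muscle content in the level of the neutrophil genes was not tested.

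Mice also differed in the balance of *Mpo* and *S100a9*, 1 early and 1 late neutrophil transcript. Of the reads of *Mpo* and *S100a9* together, *Mpo* took 13.04% in control mouse 1 (95% exact binomial interval 6.93% to 21.7%), 37.6% in control mouse 2 (32.0% to 43.5%) and 14.3% in control mouse 3 (0.361% to 57.9%, from 7 reads). In the Cre group the share was 10.9% in mouse 1 (7.33% to 15.3%) and 42.0% in mouse 3 (28.2% to 56.8%). In mouse 2 it was 0 of 220 reads, with an exact upper limit of 1.66%, while a count of 0 taken as up to 3 reads allows a share of up to 1.36%. These intervals cover counting error only. The high share of *Mpo* in Cre mouse 3 was not shared by *Elane*, which had 1 read there against 29 of *S100a9*. *Prtn3* had 14 reads there and *Ctsg*, the gene of cathepsin G, 9. In Cre mice 1 and 2, *S100a9* had 230 and 220 reads, *Prtn3* 14 and 8 and *Ctsg* 8 and 7. Relative to *S100a9*, *Prtn3* and *Ctsg* were thus also higher in Cre mouse 3, at low counts. In control mouse 2 *Elane* was high as well, with 30 reads. The highest and lowest shares of the Cre group differed by more than counting error, and so did those of control mice 1 and 2, whereas the groups overlapped.

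**Figure D4:**
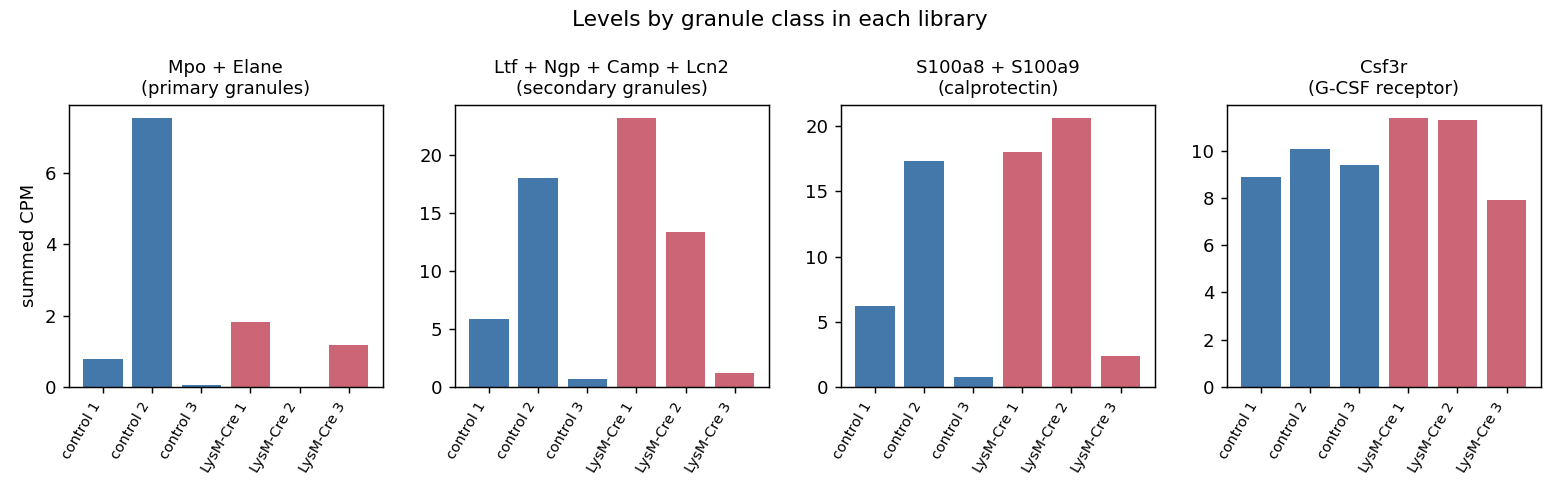
Summed CPM in each library of the primary granule genes (*Mpo*, *Elane*), the secondary granule genes (*Ltf*, *Ngp*, *Camp*, *Lcn2*), the calprotectin genes (*S100a8*, *S100a9*) and of *Csf3r*. Bars are single libraries; primary granule genes peak in control mouse 2 and are at 0 in Cre mouse 2, whose calprotectin bar is the tallest.

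Further granule genes gave mixed directions. Of 15 such genes listed, 14 were in the table and 10 were tested, with 5 higher, 5 lower and 0 called in edgeR. In edgeR 1 had an unadjusted p under 0.05, against 14.5% of all genes tested. DESeq2 called 1, *Serpinb1a*, against 4.77% of all genes. The following genes were singled out after their values were seen. *Prtn3*, which encodes proteinase 3 of the primary granules, had 7, 40 and 3 reads in the control mice and 14, 8 and 14 reads in the Cre mice. *Ctsg*, the gene of cathepsin G, had 6, 27 and 6 reads against 8, 7 and 9. Like *Mpo* and *Elane*, both were highest in control mouse 2. *Epx* and *Prg2*, genes of eosinophil granules, were also highest there, with 22 and 49 reads, against 0 and 1 in Cre mouse 2. *Vpreb1* and *Igll1*, defining genes of B cell precursors in marrow, had 1 read each in control mouse 2, and at most 5 reads in any library. Counts this low cannot show whether such cells were present. *Cd79b*, another gene of the B cell list, was highest in control mouse 2, with 60 reads against 25 to 49 elsewhere. The part of marrow cells was not tested. *Mmp8*, a collagenase stored by late precursors, had 8, 12 and 3 reads in the control mice and 27, 56 and 1 reads in the Cre mice. *Chil3*, a chitinase-like gene of neutrophils and some macrophages, had 7, 12 and 0 reads against 20, 49 and 1. *Mmp8* and *Chil3* had log2 fold changes of 1.83 (SE 1.05, edgeR adjusted p = 0.487) and 1.85 (SE 1.21, edgeR adjusted p = 0.545). Both were highest in Cre mouse 2, as was *Cxcr2*, the chemokine receptor of mature neutrophils, with 26 reads against 3 to 9 elsewhere. *Serpinb1a*, an inhibitor of the granule proteases that other cells make as well, had 356, 418 and 332 reads against 237, 268 and 173. The Cre mice were all lower, as in 11.4% of all genes tested, and its log2 fold change was -0.73 (SE 0.17, edgeR adjusted p = 0.127).

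Receptors of neutrophils were counted next. Of 14 further receptor genes listed, 13 were in the table and 9 were tested, with 5 higher, 4 lower and 0 called in edgeR. There were 0 at an unadjusted p under 0.05 in edgeR, against 14.5% of all genes tested, and 0 with DESeq2, against 4.77%. *Ly6g*, the surface antigen by which mouse neutrophils are usually sorted, had 1, 0 and 0 reads in the control mice and 8, 0 and 0 reads in the Cre mice, and so it does not serve as a measure of neutrophils at this depth. *Clec4d*, a C-type lectin receptor of neutrophils and macrophages, had 72, 67 and 57 reads against 85, 137 and 74. The Cre mice were all higher by CPM, as in 8.94% of all genes tested, with a log2 fold change of 0.58 (SE 0.26, edgeR adjusted p = 0.376). *Itgam*, the integrin chain CD11b of all myeloid cells, had between 629 and 826 reads in the control group and between 325 and 779 in the Cre group (log2 fold change -0.49, SE 0.29, edgeR adjusted p = 0.501).

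Most genes that attract neutrophils or prolong their life had few reads in both groups. Of 12 attractants, growth factors and receptors for them, all were in the table and 6 were tested, with 3 higher, 3 lower and 0 called. At an unadjusted p under 0.05 in edgeR there were 2, against 14.5% of all genes tested, and DESeq2 called 1, *C5ar1*, against 4.77%. *Csf3*, which encodes G-CSF, had 0, 2 and 0 reads in the control mice and 0, 0 and 1 in the Cre mice. *Cxcl1*, a main chemokine for neutrophils, had 7, 11 and 8 reads against 10, 18 and 3, and *Il1b* had 34, 29 and 5 against 27, 34 and 15. Reads of *Cxcl5*, another neutrophil chemokine, ran from 9 to 42. In these 4 genes the groups overlapped. *Cxcl3*, a further neutrophil chemokine, had 2, 2 and 0 reads in control mice and 8, 18 and 5 in Cre mice, too few to be tested. The Cre mice were all higher, as in 8.94% of all genes tested. *Ppbp*, a chemokine gene of platelets, had 29, 27 and 13 reads against 11, 13 and 11 (log2 fold change -0.99, SE 0.37, edgeR adjusted p = 0.286). By CPM the Cre mice were all lower in it, as in 11.4% of all genes tested. The same held for *C5ar1*, the receptor for complement C5a on neutrophils, macrophages and mast cells. This gene had 415, 430 and 380 reads in control mice and 282, 198 and 182 in Cre mice. Its log2 fold change of -0.91 (SE 0.16) had an edgeR adjusted p of 0.0597.

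Of 7 transcription factors that direct the making of neutrophils, 6 were tested and 0 were called in edgeR, with 3 higher and 3 lower. At an unadjusted p under 0.05 in edgeR, 2 were lower and 1 higher, against 14.5% of all genes tested. DESeq2 called *Cebpa* and *Runx1*, against 4.77% of all genes. *Cebpe*, which is needed for secondary granules, had between 2 and 8 reads in a library. *Cebpa* and *Spi1*, which macrophages also express, had log2 fold changes of -0.59 (SE 0.12, edgeR adjusted p = 0.0914) and -0.34 (SE 0.11, edgeR adjusted p = 0.221). *Runx1*, which is expressed in blood precursors and in connective tissue cells, had 0.42 (SE 0.13, edgeR adjusted p = 0.187). In these 3 genes the groups did not overlap, as in 20.4% of all genes tested.

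Markers of other blood and tissue cells differed in their own ways. Over all genes tested, edgeR called 0.898%, 0.568% lower and 0.33% higher, and 14.5% had an unadjusted p under 0.05 in edgeR. DESeq2 called 4.77% and the blocked test of edgeR 0.33%. The counts below are to be read beside these shares. Of 9 macrophage genes, such as *Adgre1* (F4/80), 9 were tested, 6 were lower, 3 higher and 0 called in edgeR (5 lower and 1 higher at an unadjusted p under 0.05, and DESeq2 called 3 lower). Their sum ran from 1077 to 1123 CPM in the control group and from 711 to 897 CPM in the Cre group. Of 7 erythroid genes tested, 6 were called lower, among them the globin gene *Hbb-bs* (log2 fold change -1.55, SE 0.17, edgeR adjusted p = 0.0191). In the blocked test only *Hbb-bs* of these 6 was called (edgeR adjusted p = 0.0466), and the other 5 had adjusted p between 0.0524 and 0.0634. DESeq2 called 6 lower. The erythroid sum was between 1998 and 2973 CPM against between 676 and 983 CPM. Control mouse 3 had the highest erythroid sum of all libraries and the lowest sum of neutrophil genes. Of 4 platelet genes tested, 4 were lower and 0 called (3 at an unadjusted p under 0.05, and DESeq2 called 1), with sums of 46.9 to 62.2 against 30.5 to 42.2 CPM. In the eosinophil and mast cell list, 4 genes were tested, all 4 were lower with an unadjusted p under 0.05, and 1 was called, the mast cell chymase *Cma1* (log2 fold change -1.30, SE 0.20, edgeR adjusted p = 0.0431). Both DESeq2 and the blocked test of edgeR called 3, *Cma1* and the mast cell protease genes *Cpa3* and *Mcpt4*. Of 6 monocyte genes tested, 1 was called lower, *F13a1* (log2 fold change -1.23, SE 0.19, edgeR adjusted p = 0.0456). At an unadjusted p under 0.05, 2 monocyte genes were lower and 1 higher, and DESeq2 called *F13a1* lower and *Fn1*, which encodes fibronectin and which tendon cells make as well, higher (edgeR log2 fold change 0.41, SE 0.10, adjusted p = 0.126). Of the B cell list 1 gene could be tested, which was lower at an unadjusted p under 0.05, and 0 were called by edgeR or DESeq2. In the skeletal muscle (8 tested), keratinocyte (5 tested) and tendon (6 tested) lists 0 genes were called, with 0 at an unadjusted p under 0.05 and 0 with DESeq2. Keratinocytes can make *S100a8* and *S100a9* in wounded skin, and *Krt5*, a keratin of the basal skin layer, had 34, 146 and 85 reads in the control mice and 0, 17 and 172 reads in the Cre mice. It was at 0 in Cre mouse 1, the library with the most *S100a9* reads. The parts of blood, macrophage and skin content in the levels of the 10 genes were not tested.

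**Figure D5:**
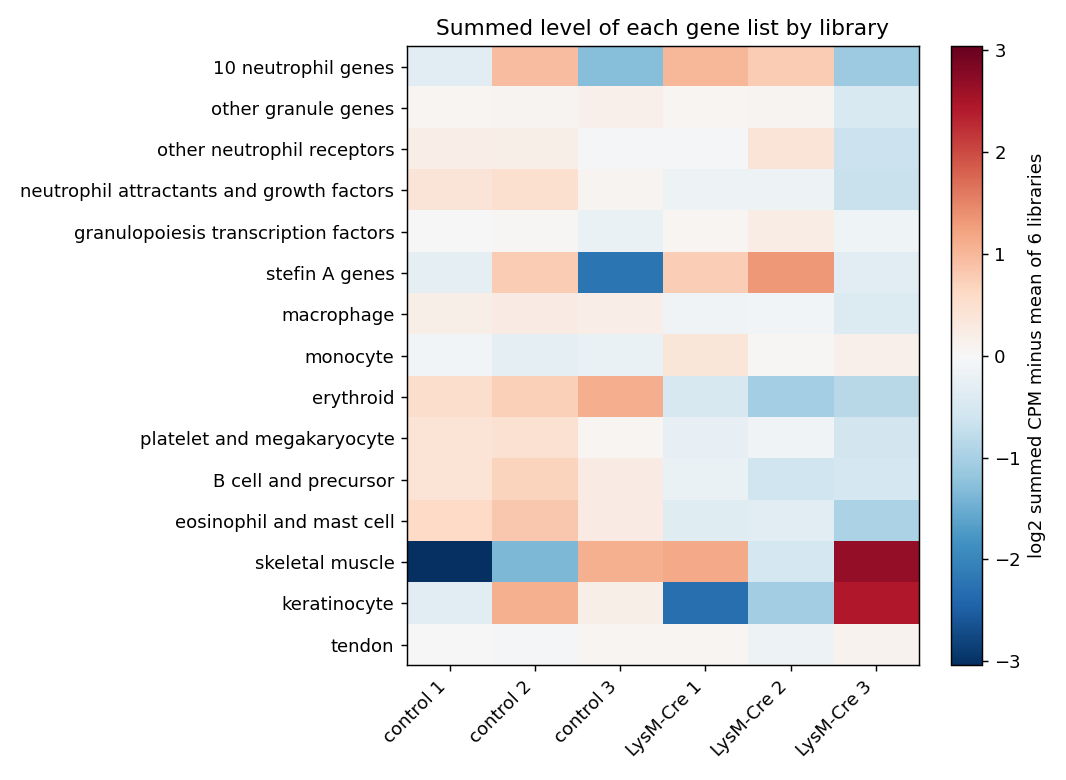
Summed CPM of each gene list in each library, as log2 minus the mean of the 6 libraries (colour scale). The 10 neutrophil genes and the stefin A genes are lowest in control mouse 3, whereas the erythroid list is highest there and separates the groups.

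The genes tested whose profile over the 6 libraries lay closest to the mean profile of the 8 tested neutrophil genes were *Cstdc5*, *Stfa1*, *Cd177*, *Stfa2l1* and *Mcemp1*. Closeness was measured as the root-mean-square distance between centred log2 CPM values, which was 0.384 for *Cstdc5* and 0.564 for *Mcemp1*. *Cstdc5* had 20, 46 and 4 reads in the control mice and 63, 58 and 18 reads in the Cre mice. *Stfa1* had 15, 38 and 3 reads against 24, 38 and 6, and *Cd177* 4, 17 and 0 reads against 19, 23 and 0. In each of these the mice numbered 3 were below the other 4, which follows largely from how the genes were chosen. *Stfa1*, *Stfa2l1* and the related *Cstdc5* are close relatives, so reads could have been divided among them and their single values are uncertain. Of 6 stefin A genes listed, 4 were tested, and all 4 were higher in the Cre group with 0 called and 0 at an unadjusted p under 0.05 (median log2 fold change 0.99, smallest edgeR adjusted p = 0.386).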

How the data were processed

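RNA sequencing was analysed for 3 control and 3 *LysM-Cre; Ampkα1 fl/fl* mice. For each of 65053 RefSeq transcripts, the authors deposited an estimated count, which is not normalized, and a TPM value, scaled by the authors to transcript length and library. The deposited normalized count, a signal, could be obtained from the estimated count by rounding it upwards and applying a single factor in each library. The submitters' processing notes name GRCm38.p6. The aligner, the counting tool and the use of strand are not given in the sources used here. In addition, 6 FPKM columns and 8 columns of averages were not used.

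Estimated counts were summed per gene and rounded to whole reads. Symbols were matched by NCBI Gene identifier to RefSeq for 18049 of 18099 genes. The test was the quasi-likelihood F test of edgeR 4.0.16 (R 4.3.3, TMM factors, filterByExpr with a minimum count of 10) with Benjamini-Hochberg adjustment over the 14261 genes tested and a threshold of 0.05, after a check on simulated data. The SE is the fold change over the root of its F value. DESeq2 1.42.0, other scalings, other filters, single transcripts, a block and leaving out each mouse were alternatives. CPM uses TMM factors. A gene at 0 reads was set at a floor of 3 reads for lower bounds of a fold. Same-numbered libraries deviated from their group means together across genes, though weakly (correlations 0.184, 0.118 and 0.31). Only those numbered 3 were each other's best match. Control 1 was closest to Cre 2, control 2 to Cre 3, and Cre 2 to control 1. The replicate numbers of the labels were used as pairs in the blocked test, and these values do not establish the pairing. Nothing in the labels says how mice were numbered.

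The 10 genes and the other lists were chosen with earlier results of these data known. The text gives all 10 genes, list counts, up to 5 genes of a list with the largest change or called, *Prkaa1* and *Lyz2* as checks, and the 5 nearest profiles. Other genes were chosen after their values were seen.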

Additional observations from a re-analysis of the deposited data

How the results depend on the processing

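In all alternatives, none of the 10 neutrophil genes passed an adjusted p of 0.05 (0 genes, with DESeq2, RLE or deposited scaling factors, tests without a minimum count or with 10 reads required everywhere, the replicate block, single transcripts, or without any 1 mouse). Over the 8 genes tested, 84 of 89 fold changes under alternatives kept their direction, with adjusted p between 0.0958 (*Retnlg* without Cre mouse 3) and 0.992. The other 5 turned when 1 mouse was left out. Leaving out each mouse gave -0.37 to 2.18 for *Ngp*, -1.94 to 1.30 for *Mpo*, -0.093 to 0.94 for *Lcn2*, 0.05 to 2.10 for *S100a8*, 0.28 to 1.89 for *S100a9*, 0.38 to 2.80 for *Ltf*, 0.85 to 1.94 for *Retnlg* and 0.02 to 0.26 for *Csf3r*. Control mouse 2 gave the upper value in *Ngp*, *Mpo*, *Lcn2*, *S100a8*, *S100a9* and *Ltf* when left out. The number of all genes called was 128, and it moved to 680 with DESeq2, to 47 with the replicate block, to 1 with single transcripts, and to between 8 (without control mouse 2) and 276 (without Cre mouse 2) when a mouse was left out. The causes were not tested. The replicate block changed no call among the 10 genes. With 10 reads required everywhere, only *Csf3r* of the 10 genes remained to be tested. The depth left *Elane* and *Camp* untested, and with no filter their log2 fold changes were -2.03 (edgeR adjusted p = 0.649) and -0.28 (edgeR adjusted p = 0.961).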
